A study of Caenorhabditis elegans with 4 samples.

Results

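Chromosome II of Caenorhabditis elegans carried 608 of the 4256 NFYA-1 binding regions (peaks) in the combined peak list of the study, which is 14.3% of that list. These 608 regions, together with the 436 replicate 1 peaks and the 316 replicate 2 peaks on the same chromosome, are described here. A peak was taken as a member when its chromosome was given as II, so neither strength nor width played a part in the choice. Binding was measured by chromatin immunoprecipitation and sequencing (ChIP-seq) with an antibody against green fluorescent protein (GFP), in L3 hermaphrodite larvae kept at 20 °C and fixed with 2% formaldehyde. All 4 samples, 2 ChIP and 2 input, came from the strain OP404, whose genotype is unc-119(ed3) III together with the transgene wgIs404, which holds nfya-1::TY1-GFP-3xFLA and unc-119(+). The transgene was introduced by bombardment and the line was outcrossed 3 times, so the results rest on 1 transgenic line, and the sources used here do not give the place of the transgene in the genome. The authors deposited a list for each ChIP replicate and a combined list, and the 2 input samples entered no comparison. Whether the replicates were separate cultures is not stated, so differences between the lists may be technical in part.

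NF-Y is a transcription factor of 3 different subunits, and NFYA-1 is one of its A subunits. The B and C subunits pair through histone-like folds, and the A subunit then joins them and makes the sequence-specific contact with the CCAAT box, a common promoter element. The autosomes of C. elegans have no point centromere. They are divided into a central part, in which genes are dense and recombination is rare, and 2 arms with more repeats and more recombination. For this description chromosome II was divided by position alone. The left arm was the first 25% of the largest peak coordinate (1 to 3814750 on WormBase build WS180), the centre ran from 3814751 to 11444250, and the right arm from 11444251 to 15259000.

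Peaks were unevenly spread, and the chromosome was not symmetrical. In the combined list the left arm held 90 peaks, the centre 354 and the right arm 164. The density was 23.6 peaks per Mb in the left arm (95% interval 19.0 to 29.0), 46.4 in the centre (41.7 to 51.5) and 43.0 in the right arm (36.7 to 50.1). The intervals are exact Poisson intervals for the count of peaks and hold no variation between worms or between neighbouring peaks. The left arm thus had 0.549 times the density of the right arm (0.420 to 0.714), an interval that lies below 1. The same order of the arms was present in each replicate. Replicate 1 had 54 peaks in the left arm and 130 in the right arm (ratio 0.415, 0.297 to 0.575), and replicate 2 had 37 and 99 (ratio 0.374, 0.249 to 0.550). The sequence covered by peaks followed, with 1.17% of the left arm, 3.30% of the centre and 2.86% of the right arm inside a combined peak.

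The imbalance of the arms was present among peaks called in both replicates and was not seen among peaks in neither. An overlap of 1 bp was enough for a peak to count. Among combined peaks that overlapped both replicate lists, 33 lay in the left arm and 93 in the right arm (ratio 0.355, 0.231 to 0.533). Of those that overlapped neither, 33 lay in each arm (ratio 1, 0.598 to 1.67). That interval is wide and overlaps the interval for all combined peaks. The centre held 58.2% of all combined peaks (54.2 to 62.2%, exact binomial interval), 57.8% of replicate 1 peaks and 56.96% of replicate 2 peaks. This was close to the other autosomes, whose centres held 57.6% of their combined peaks (difference 0.589 percentage points, -3.73 to 4.83). Their shares were 56.6% in replicate 1 and 54.5% in replicate 2. Set against both arms together, the centre was 1.39 times as dense (1.18 to 1.64), but the intervals of the centre and of the right arm alone overlapped.

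**Figure D1:**
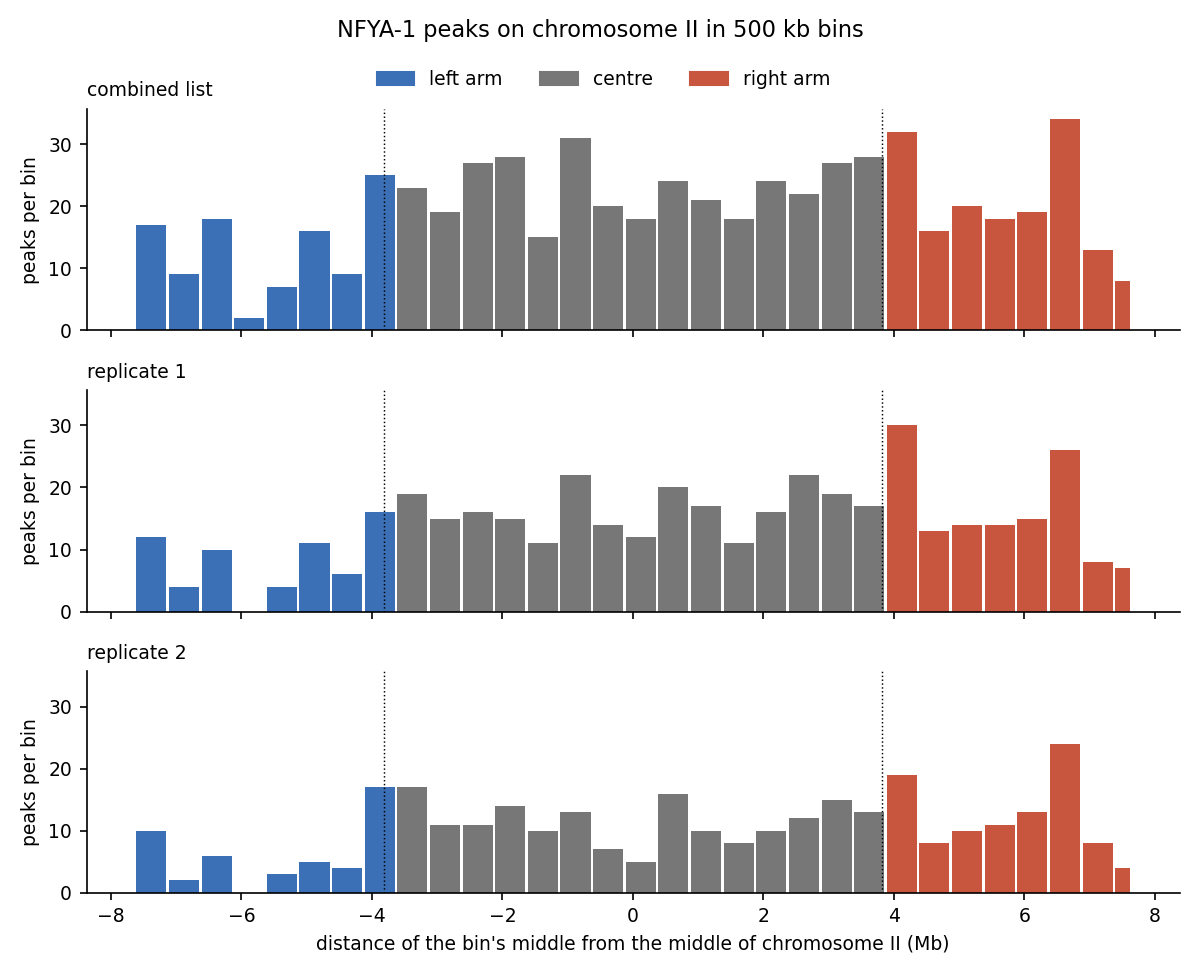
Peaks per 500 kb bin (bar height) against the distance of the bin's middle from the middle of chromosome II in Mb, for the combined list, replicate 1 and replicate 2. Dotted lines mark the limits of the arms, a bar takes the colour of the part that holds its middle, and the last bar covers 259 kb. The left arm holds the lowest full bins in each panel, including 1 bin with 2 combined peaks and 0 in either replicate, and the right arm holds the highest bin of each list.

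In bins of 500 kb the combined list had a median of 19.5 peaks over 30 full bins (interquartile range 16.2 to 24.8). Of the 8 full bins whose middle lay in the left arm, 1 reached that median, against 11 of 15 in the centre and 3 of 7 in the right arm. That bin, from 3500001 to 4000000 with 25 peaks, crosses the limit of the arm, and 12 of its peaks lay in the left arm. The densest bin lay in the right arm, from 14000001 to 14500000, with 34 combined peaks (23.5 to 47.5), 26 in replicate 1 and 24 in replicate 2. The next was at the inner edge of the right arm, from 11500001 to 12000000, with 32 combined peaks (21.9 to 45.2), 30 in replicate 1 and 19 in replicate 2. The densest bin of the centre was 6500001 to 7000000, with 31 combined peaks (21.1 to 44.0), 22 in replicate 1 and 13 in replicate 2. The intervals of these 3 bins overlap, and their order differs between the replicates. The sparsest full bin, 1500001 to 2000000, had 2 combined peaks (0.242 to 7.22) and 0 peaks in each replicate. It was followed by 2000001 to 2500000, with 7 (2.81 to 14.4), and by 500001 to 1000000 and 3000001 to 3500000, with 9 each (4.12 to 17.1). All 4 lie in the left arm. Across the 30 full bins, Spearman's rho between the counts of the 2 replicates was 0.89 and Pearson's r was 0.89. The bins share the chromosome, the peak caller and their neighbours, so this is a description only.

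Peak-poor stretches were concentrated in the left arm. The 3 longest stretches without a combined peak lay there. They ran from 1438220 to 1819921 (382 kb), from 848973 to 1084860 (236 kb) and from 1844909 to 2058964 (214 kb). None of these held a peak of either replicate. The longest stretch of the centre, from 9325196 to 9487386, was 162 kb, and the longest of the right arm, from 14645661 to 14794823, was 149 kb. The fifth longest was in the centre, from 6097752 to 6250743 (153 kb). Of 17 stretches of 100 kb or more, 10 were in the left arm, where they took up 43.8% of the sequence. In the centre 4 such stretches took up 6.85%, and in the right arm 3 took up 9.67%. In the replicates the share of the left arm in such stretches was 58.9% and 77.9%, against 17.2% and 29.1% of the right arm.

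Several of these stretches adjoin. Between 1438220 and 2342023, a span of 904 kb picked out after the lists were seen, the combined list had 6 peaks, which covered 2231 bp. The strongest of them, from 2058965 to 2059369, was the 1 that overlapped both replicates. It measured 405 bp, and its q value was 6.87e-12 (combined), 3.45e-06 (replicate 1) and 2.66e-05 (replicate 2). The other 5 overlapped neither replicate. Without this span, the left arm had 28.9 peaks per Mb and a ratio to the right arm of 0.671 (0.510 to 0.878). That interval still lies below 1.

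Peak strength is given here as −log10 of the q value that the authors' peak caller, PeakSeq, gave each peak, so that a larger value is a stronger call. Peaks of the left arm were the weakest and those of the right arm the strongest. In the combined list the median −log10 q was 6.92 in the left arm (interquartile range 5.0 to 12.1), 8.96 in the centre (5.91 to 16.5) and 11.7 in the right arm (6.40 to 24.6). Replicate 1 gave medians of 6.39, 7.58 and 9.98, and replicate 2 gave 6.26, 7.45 and 8.82, in the same order. Among combined peaks that overlapped both replicates the medians were 15.0, 17.7 and 21.3. The interquartile ranges overlap throughout, and no test across peaks was made, because peaks of the same 2 samples are not replicates. The lists give no read counts, so the depth behind each value is unknown. In the combined list the right arm also had the highest median on III (12.7) and IV (12.8). On I it did so by little (9.99 against 9.90 in the left arm), and on V the left arm was highest (10.8). On each of these autosomes the lowest combined median was in the centre, not in the left arm.

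**Figure D2:**
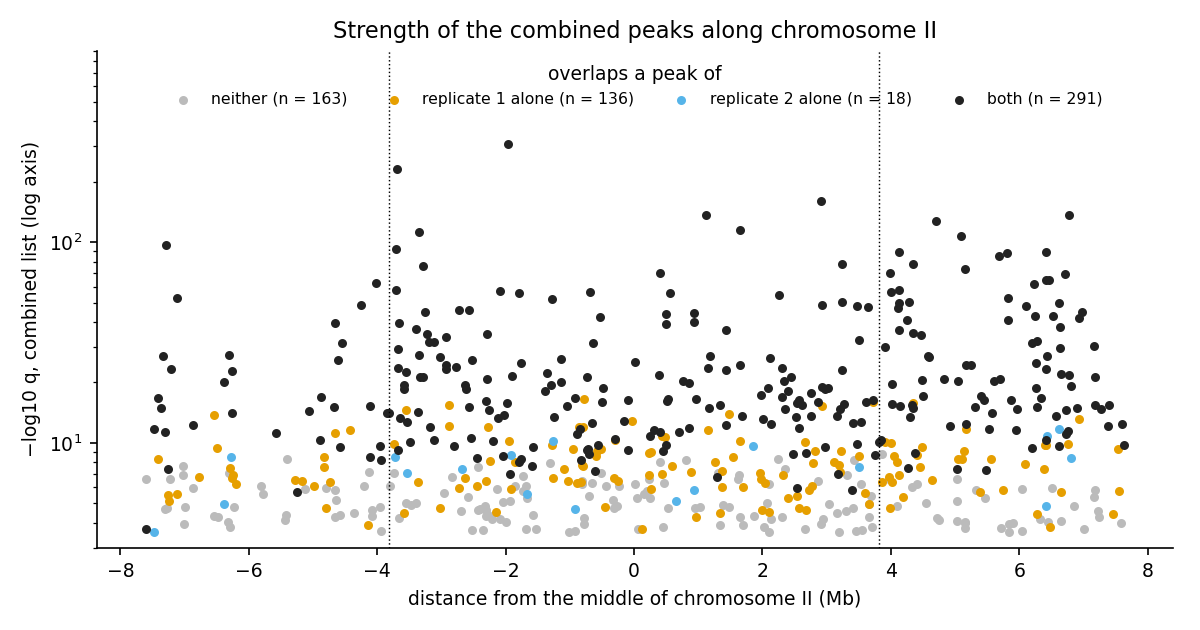
Strength of each of the 608 combined peaks as −log10 q (log axis) against its distance from the middle of chromosome II in Mb, with colours for overlap with the replicate lists and dotted lines at the limits of the arms. Peaks in both replicates (n = 291) fill the upper range, peaks in neither (n = 163) reach a −log10 q of at most 8.79, and the left arm has few strong peaks.

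The strong end of the list was placed accordingly. The 100 strongest combined peaks were found 9 times in the left arm, 49 times in the centre and 42 times in the right arm, and all 100 overlapped both replicates. Over all 4256 combined peaks of any strength the share in both was 48.2%. The share among the strongest peaks of the whole genome is not given here, so full recovery is not shown to be particular to chromosome II. Among the 20 strongest, 1 was in the left arm, 9 in the centre and 10 in the right arm.

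Median widths of the parts lay close together in the combined list and increased from left to right in the replicates. The median width was 439.5 bp in the left arm (interquartile range 368 to 542 bp), 428 bp in the centre (343 to 642 bp) and 444 bp in the right arm (368 to 702 bp). In replicate 1 the medians were 407, 420.5 and 445 bp, and in replicate 2 they were 372, 406 and 448 bp, with interquartile ranges that overlap. The parts differed in their widest peaks. Peaks of 2000 bp or wider numbered 21 in the centre (5.93%) and 6 in the right arm (3.66%), against 3.67% of all combined peaks in the genome. The left arm had 0 among 90. A count of 0 allows up to 3 peaks, or 3.33%, which is close to the shares of the right arm and of the genome, so a difference from them was hardly detectable with 90 peaks. Its widest peak measured 1988 bp. Wide peaks made up 24.2% of all sequence covered on chromosome II. Strength and width were related across peaks, with Spearman's rho of 0.19 in the left arm (n = 90), 0.40 in the centre (n = 354) and 0.52 in the right arm (n = 164). A q value can depend on the width of a region, so this is given as a description.

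**Figure D3:**
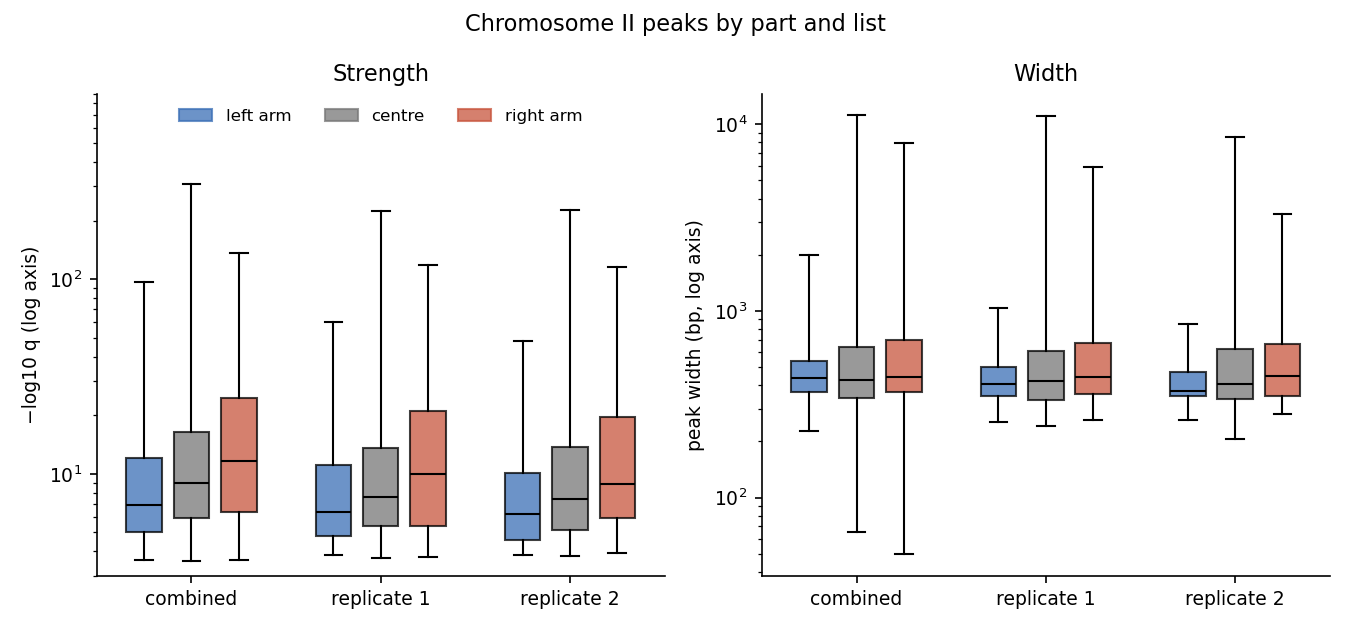
Strength (−log10 q, log axis) and width (bp, log axis) of chromosome II peaks by part in the combined, replicate 1 and replicate 2 lists. Boxes span the interquartile range with a line at the median, and whiskers reach the lowest and highest peak. Median strength increases from the left arm to the right arm in each list, whereas the boxes for width overlap broadly.

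The strongest region of chromosome II, from 5659961 to 5664007 in the centre, was also the strongest of the genome in all 3 lists. Its −log10 q was 307 in the combined list, 223 in replicate 1 and 228 in replicate 2, and its width was 4047, 3760 and 3675 bp. The second region on the chromosome, from 3929266 to 3932047, lay just inside the left limit of the centre and had −log10 q values of 232, 153 and 118. Replicate 1 called it as a single peak of 2735 bp, and replicate 2 split it into 2 peaks, of which the stronger measured 1193 bp. Close to it lay the region from 3917670 to 3918838, rank 11 on the chromosome, with −log10 q values of 93.0, 54.1 and 46.5. Both replicates placed the first 2 regions in the same order.

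Compact sites stood beside broad ones in the right arm. The region from 12338994 to 12339590 measured 597 bp and had −log10 q values of 127 in the combined list, 118 in replicate 1 and 115 in replicate 2, where it ranked 3 on the chromosome both times. The regions from 13446418 to 13446933 (516 bp) and from 13321101 to 13321500 (400 bp) had combined values of 88.5 and 85.2. They ranked 9 and 14 on the chromosome in replicate 1, and 7 and 9 in replicate 2. In the centre, the region from 4341410 to 4341897 (488 bp) had a combined value of 76.0, with 54.3 and 41.8 in the replicates. These were the 4 regions under 600 bp among the 20 strongest, whose median width was 1538.5 bp (range 400 to 11151 bp).

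The left arm placed a single region among the 20 strongest. It ran from 340974 to 341718, measured 745 bp, and had −log10 q values of 96.8 in the combined list, 60.0 in replicate 1 and 48.0 in replicate 2, where it stood at rank 8 on the chromosome both times. The next in that arm were the regions from 3616568 to 3617005 (438 bp, combined q = 2.78e-63) and from 515751 to 516167 (417 bp, combined q = 1.24e-53). Each of the 3 overlapped a peak of both replicates.

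Of the 20 strongest regions, 15 ranked within the first 20 on chromosome II in both replicates as well, and 18 had a larger −log10 q in replicate 1 than in replicate 2. The lowest rank on the chromosome among their best replicate peaks was 22 in replicate 1 and 34 in replicate 2. Rank 34 belonged to the widest region, from 10541812 to 10552962 (11151 bp), whose −log10 q was 160 in the combined list, 89.1 in replicate 1 and 27.2 in replicate 2. Replicate 1 called it over 11051 bp, and replicate 2 split it into 2 peaks. It was followed after 269 bp by a further wide peak from 10553232 to 10557642 (4411 bp, combined q = 6.27e-16), which overlapped a peak of replicate 1 but none of replicate 2.

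The other widest regions were less uniform in strength. The second widest, from 14597815 to 14605704 in the right arm (7890 bp), ranked 51 on the chromosome, with −log10 q values of 44.7 in the combined list, 29.8 in replicate 1 and 10.80 for the better of 2 peaks in replicate 2. Next in width, the region from 8741847 to 8748176 (6330 bp) ranked 5, and its replicate peaks were of similar extent, at 6386 and 5647 bp. Those from 6888146 to 6892868 (4723 bp) and from 8785789 to 8790280 (4492 bp) ranked 121 and 105. Replicate 1 covered them with peaks of 4230 and 3048 bp and replicate 2 with peaks of 1523 and 857 bp. In 4 of the 5 widest regions the best replicate 2 peak was thus shorter than that of replicate 1 by more than 2000 bp. In the widest of them this reflects the split into peaks of 2212 and 8514 bp. Together these reached from 10541825 to 10552758, nearly the extent of the replicate 1 peak. Over the whole chromosome, 4 combined peaks held 2 replicate 1 peaks and 6 held 2 replicate 2 peaks, and none held more.

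Of the 608 combined peaks, 291 overlapped a peak of both replicates (47.9%, 43.8 to 51.9%), close to the 48.2% of all 4256 combined peaks. A further 136 overlapped replicate 1 alone (22.4%, genome 21.7%), 18 replicate 2 alone (2.96%, genome 2.42%) and 163 overlapped neither (26.8%, genome 27.6%). The share in both replicates was 36.7% in the left arm (33 of 90, 26.8 to 47.5%), 46.6% in the centre (165 of 354, 41.3 to 52.0%) and 56.7% in the right arm (93 of 164, 48.8 to 64.4%). The right arm exceeded the left by 20.0 percentage points (95% interval 7.20 to 31.8, Newcombe), whereas the centre and the 2 arms combined differed by -3.00 points (-10.97 to 5.02). Peaks found in neither replicate took the opposite course, with 36.7% in the left arm, 27.4% in the centre and 20.1% in the right arm.

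**Figure D4:**
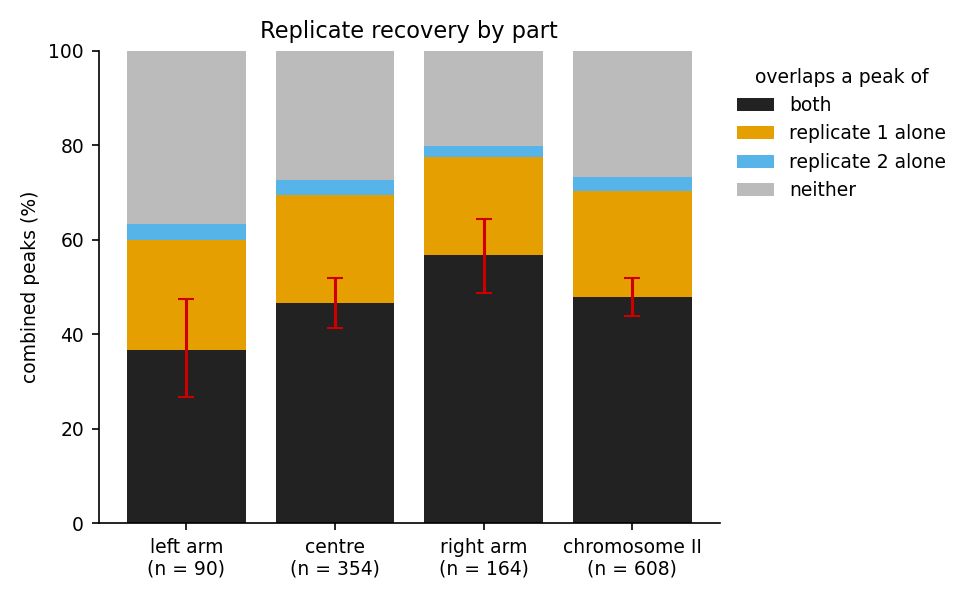
Share of combined peaks (%) that lay on peaks of both replicates, of 1 replicate or of neither, in each part and in chromosome II as a whole. Red bars are exact 95% binomial intervals of the share in both, which is 36.7% in the left arm, 46.6% in the centre and 56.7% in the right arm.

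Within each part, stronger peaks were recovered more often. When the 608 peaks were divided by strength into 4 equal sets of 152, all peaks of the strongest set were in both replicates in each part (12 in the left arm, 84 in the centre and 56 in the right arm). In the next set the shares were 80.0% (16 of 20), 72.4% (63 of 87) and 73.3% (33 of 45). In the second weakest set they were 10.7% (3 of 28), 17.9% (17 of 95) and 13.8% (4 of 29), and in the weakest 6.67% (2 of 30), 1.14% (1 of 88) and 0 of 34. Within the stronger 50% of peaks, the right arm exceeded the left by 0.619 percentage points (-10.2 to 17.0), an interval that still allows much of the difference over all peaks. At the 284 peaks matched one to one in both replicates, the combined −log10 q was close to the sum of the replicate values (median ratio 0.921). Strength and recovery can therefore not be taken as independent measures here. The left arm had 12 of its 90 peaks in the strongest set, against 56 of 164 in the right arm.

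The replicate lists gave a similar picture directly. Of 436 replicate 1 peaks on the chromosome, 294 overlapped a replicate 2 peak (67.4%, 62.8 to 71.8%, genome 68.2%), with 61.1% in the left arm, 66.3% in the centre and 72.3% in the right arm. Of 316 replicate 2 peaks, 297 overlapped a replicate 1 peak (93.99%, 90.8 to 96.3%, genome 95%), with 89.2%, 93.9% and 95.96%. The intervals of the parts overlap in both directions. The strongest replicate 1 peak without a partner in replicate 2 ran from 11347736 to 11348415 (680 bp, q = 7.54e-14), and the strongest replicate 2 peak without a partner ran from 9487406 to 9487869 (464 bp, q = 7.23e-08). In the combined list the strongest peak without both replicates ranked 159 on the chromosome. It ran from 6842419 to 6845254 (2836 bp, q = 3.00e-17) and overlapped replicate 1 alone. The strongest with replicate 2 alone ran from 14249372 to 14250835 (1464 bp, q = 2.02e-12), and the strongest with neither from 11484533 to 11484869 (337 bp, q = 1.62e-09).

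Peaks matched one to one in both replicates lay at nearly the same place. For 284 combined peaks with exactly 1 partner in either replicate, the centres of the replicate peaks were a median of 18 bp apart (interquartile range 7.88 to 41.5 bp), and 255 pairs (89.8%) were within 100 bp. The largest distance was 1356.5 bp, in the wide region from 6888146 to 6892868. The pairs were chosen by overlap with the same combined peak and leave out split regions. Their distance was thus limited in advance and is a description only. The order of strength was kept, with Spearman's rho of 0.85 and Pearson's r of 0.97 over the 284 pairs. By part, rho was 0.63 in the left arm (n = 33), 0.86 in the centre (n = 160) and 0.89 in the right arm (n = 91). Both values of a pair come from regions that the same caller retained, so the coefficients are descriptions. Replicate 1 had the larger −log10 q in 242 pairs (85.2%, 80.5 to 89.1%), with 78.8%, 85.0% and 87.9% in the 3 parts, and the medians were 11.5 in replicate 1 and 7.82 in replicate 2. Replicate 1 also had the longer list over the whole genome, with 3037 peaks against 2188. The share over matched peaks of all chromosomes is not given here, so the 85.2% is not shown to be particular to chromosome II.

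**Figure D5:**
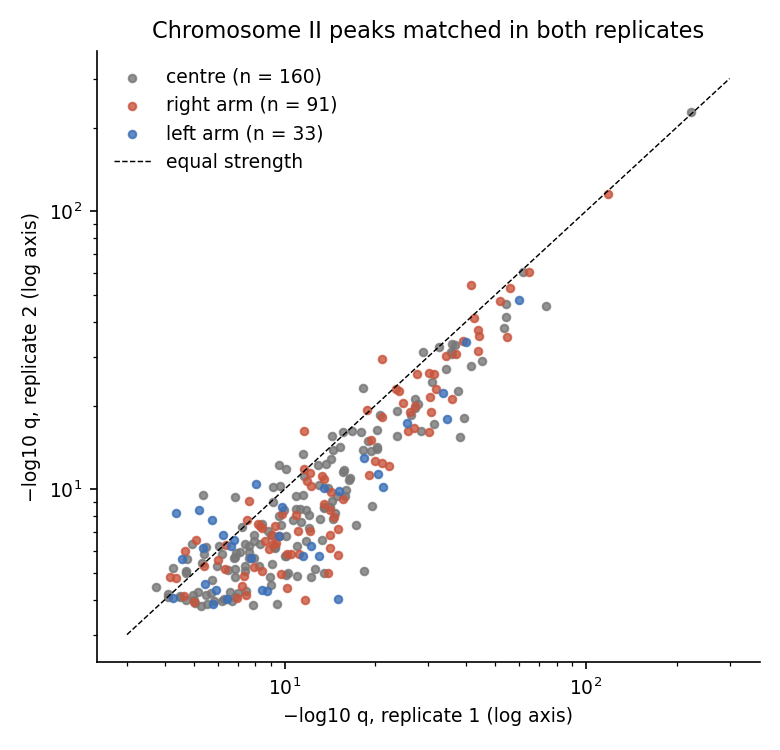
Strength in replicate 1 and in replicate 2 (−log10 q, log axes) of the 284 chromosome II peaks matched one to one, coloured by part, with a dashed line at equal strength. Of the 284 points, 242 have the larger value in replicate 1, and the points of the left arm lie mostly in the lower range.

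Dividing the combined −log10 q by the replicates' sum gave a median of 0.921 at these matched sites (interquartile range 0.842 to 1.01), and it exceeded the better replicate in 277 of 284. The strong compact region from 12338994 to 12339590 had a ratio of 0.544. The top region had 0.681, but its combined q value of 4.99e-308 lies near the smallest number that standard computer precision holds. Whether that limit lowered its ratio was not tested. The lowest ratio, 0.296, belonged to the first peak of the chromosome, from 22959 to 24946 (1988 bp). In the combined list it stood at rank 594 of the chromosome (q = 1.89e-04), but its peak in replicate 1 stood at rank 386 (q = 4.39e-05) and that in replicate 2 at rank 147 (q = 6.07e-09). It is also the widest combined peak of the left arm. Conversely, 5 replicate 1 peaks and 1 replicate 2 peak on the chromosome overlapped no combined peak. The strongest of these was from 8683917 to 8684185 in replicate 1 (q = 2.16e-05).

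Against the other autosomes pooled, the left arm of chromosome II was sparse, the centre was somewhat less dense, and the right arm was not sparse. The whole chromosome's density of 39.8 peaks per Mb was 0.870 times that of chromosomes I, III, IV and V together (0.796 to 0.949), and the ratio was 0.854 in replicate 1 and 0.856 in replicate 2. The chromosomes differed in this comparison. Chromosome II was less dense than I (ratio 0.817, 0.732 to 0.911), III (0.596, 0.537 to 0.662) and IV (0.882, 0.792 to 0.981) and denser than V (1.31, 1.17 to 1.47). Without chromosome III the pooled ratio was 0.987 (0.900 to 1.08). The left arm of II had 0.633 times the density of the other autosomal left arms (0.502 to 0.791), with 0.519 (0.384 to 0.689) in replicate 1 and 0.492 (0.341 to 0.693) in replicate 2. For the centre the ratio was 0.879 (0.782 to 0.986). It was 0.872 (0.759 to 0.9995) in replicate 1 and 0.895 (0.758 to 1.05) in replicate 2. The right arm did not differ beyond counting error from the other right arms pooled (1.07, 0.893 to 1.27). That pool was mixed, with 38.5 (I), 81.3 (III), 35.0 (IV) and 19.1 (V) peaks per Mb. Only the right arm of III was denser than that of II, at 43.0. The left arms of the other autosomes had 41.1 (I), 37.5 (III), 42.4 (IV) and 30.0 (V) peaks per Mb, each above the 23.6 of II. No ratio of II to a single other arm was computed. Whether II lay below V beyond counting error is therefore not shown. A lower density in the left than in the right arm was also seen on III, with a ratio of 0.461 (0.371 to 0.570), but there the right arm was dense, at 81.3 peaks per Mb. The ratio was 1.07 on I, 1.21 on IV and, in the opposite direction, 1.57 on V (1.21 to 2.04). On the X chromosome, which is not an autosome, it was 0.746 (0.589 to 0.942). There it was 0.743 in replicate 1 and 0.773 in replicate 2 (0.539 to 1.10). The share of peaks in both replicates differed from that of the other autosomes by -1.81 percentage points (-6.14 to 2.53), the median width was 436.5 against 439.5 bp, and the median −log10 q was 9.19 against 10.0.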

How the data were processed

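NFYA-1 ChIP-seq peaks of 2 ChIP replicates and a combined list were analysed. Per the file headers, coordinates are on WormBase WS180 and the caller was PeakSeq. The p-value column holds the authors' q value for each peak, as deposited. No source used here names the aligner, caller version, control library or way of combining replicates. The files hold no counts, so depth is unknown. From them, width, −log10 q, overlap of at least 1 bp, position by part (25%, 50% and 25% of the largest coordinate, peak midpoint) and counts in 500 kb bins were computed with python 3.11.15, numpy 2.4.6, pandas 2.3.3 and scipy 1.17.1. Intervals are 95% (Clopper-Pearson, exact Poisson, conditional binomial for ratios, Newcombe for differences), cover counting error only and treat neighbouring peaks as independent. No p-value was computed. Regions named by rule are the 20 strongest in both replicates, the 5 widest, the strongest of each part and class, the 5 longest gaps and the 3 densest and sparsest bins. Some further regions named in the text, such as the next strongest of the left arm, lie outside this rule. The members, parts and comparisons were chosen with earlier results of these data known, and the comparison of the left with the right arm was added after the values were seen. Counting was checked on a simulated list of 600 peaks, where all 278 planted overlaps were recovered. Genes and sequences at the peaks were not analysed here, because no WS180 annotation or genome was used.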

Additional observations from a re-analysis of the deposited data

How the results depend on the processing

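The 11 results were recomputed under 48 alternatives, of which 29 stayed within the main interval, the spread between the replicate lists or 1.5 times the count. No difference changed sign and no ratio crossed 1, although the ratio of left to right arm reached 1 for peaks in neither replicate. Shares, lengths and counts had no direction that could change. The share in both replicates was 86.8% for the stronger 50% of peaks. It was 50.8 to 70.2% when a single replicate was required, a weaker condition that cannot give a lower share. The density ratio to other autosomes was 0.987 without chromosome III. The longest stretch without a peak was 684 kb for peaks in both replicates, and 620.8 to 684 kb in either replicate, which have fewer peaks. Centre minus arms, the median width was -13 bp, with -5 bp in each replicate and -6 bp for peaks in both, and the median −log10 q was -0.67, with -2.50 for peaks in both (-0.96 to -0.40 in the replicates). For the arms, a comparison added after seeing the data, the density ratio was 0.374 to 0.415 in the replicates, 0.317 for the stronger 50% and 0.355 for peaks in both. The right arm's median −log10 q exceeded the left's by 4.78, with 2.57 to 3.59 in the replicates and 6.36 for peaks in both. Its excess in recovery was 0.619 points for the stronger 50%. Why these values moved was not tested. No paired analysis was possible because no list of the input samples was used here. As depth is unknown, the longer list of replicate 1 cannot be set against its reads.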
